A study of Mus musculus with 6 samples.

Results

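The genes described here are 4 interferon-inducible GTPases, Gbp4, Gbp6, Irgm2 and Iigp1, and Irf8, a transcription factor of the interferon regulatory factor family. They were chosen by name and read from rows of the count tables that cover at least 50 bp of exon of no other gene. Of the 10772 genes with such a row, these are 5, and each had a row. They were compared between 3 tumours grown from sgUhrf1 cells, labelled Uhrf1 knockout, and 3 tumours grown from sgNT cells, labelled wild type and control. Both were stable derivatives of LG1233-OVA, a murine lung cancer line whose name carries OVA, the usual short form of the model antigen ovalbumin, and the knockout was made with CRISPR/Cas9. Each mouse, a female C57BL/6 with its own immune system, received 1000000 cells under the skin, and tumours were taken on day 27. The labels do not say whether a line was 1 clone, and they give neither the age of the mice nor the cut site in Uhrf1. Poly-A RNA of whole tumours was sequenced, so cancer cells and host cells were measured together.

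Interferon-gamma signals through its receptor and the kinases JAK1 and JAK2 to GAS elements in promoters. Type I interferons act on a related element, the ISRE. Among the most inducible targets in mice are the guanylate-binding proteins (GBPs) and the immunity-related GTPases (IRGs), which gather on vacuoles that hold parasites or bacteria and disrupt them. Regulatory IRGs such as Irgm1, Irgm2 and Igtp stay on the cell's own membranes and keep effector IRGs such as Iigp1, Tgtp1 and Tgtp2 inactive there. Irf8 is itself inducible by interferon-gamma and is best known for its part in forming monocytes, dendritic cells and B cells.

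RefSeq promoter windows of GRCm38.p6, 250 bases before to 50 bases after the gene start, were present for Irgm2 and Irf8 among the 5 genes. They are shown with that of Igtp, which shares count rows with Irgm2, because these windows hold matches to the elements that interferons act on. Matches to the ISRE letters GAAANNGAAA and to the GAS letters TTCNNNGAA, sought on both strands, are in capitals. Irgm2 lies at chr11:58214727-58215026, Igtp at chr11:58199306-58199605 and Irf8 at chr8:120736108-120736407, all on the plus strand.
Irgm2: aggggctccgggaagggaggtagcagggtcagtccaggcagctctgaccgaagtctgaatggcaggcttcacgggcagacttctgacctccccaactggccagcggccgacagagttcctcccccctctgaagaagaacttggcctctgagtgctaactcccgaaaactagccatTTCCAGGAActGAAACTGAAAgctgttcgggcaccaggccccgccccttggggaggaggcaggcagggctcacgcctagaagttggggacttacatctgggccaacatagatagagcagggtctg
Igtp: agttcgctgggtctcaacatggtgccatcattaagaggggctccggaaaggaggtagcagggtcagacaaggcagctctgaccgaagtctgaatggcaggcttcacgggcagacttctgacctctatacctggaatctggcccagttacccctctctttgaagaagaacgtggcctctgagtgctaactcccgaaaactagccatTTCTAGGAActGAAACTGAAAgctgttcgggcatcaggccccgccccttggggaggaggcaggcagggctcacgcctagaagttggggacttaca
Irf8: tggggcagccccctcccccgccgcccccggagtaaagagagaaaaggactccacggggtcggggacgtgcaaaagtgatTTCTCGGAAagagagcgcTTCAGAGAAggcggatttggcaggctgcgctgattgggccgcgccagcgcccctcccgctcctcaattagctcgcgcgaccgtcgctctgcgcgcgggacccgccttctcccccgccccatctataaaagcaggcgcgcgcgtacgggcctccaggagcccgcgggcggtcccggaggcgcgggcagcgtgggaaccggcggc

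The Irgm2 window held 1 GAS match and 1 ISRE match with 2 bases between them, at bases -75 to -55 from the gene start. The Igtp window held the same arrangement at -45 to -25. The Irf8 window held 2 GAS matches, at -171 to -163 and -153 to -145, and no ISRE match, and a second RefSeq window of Irf8, further into the gene, held neither. Of 32817 windows in the table, 3.43% held the ISRE letters, 8.29% the GAS letters and 0.451% both. The run of GAS, 2 bases and ISRE, a spacing chosen after the sequences were read, occurred in 5 windows (0.0152%), all of IRG genes, and its letters are set side by side here.
Irgm2: TTCCAGGAActGAAACTGAAA
Igtp: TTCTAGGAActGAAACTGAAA
Tgtp1: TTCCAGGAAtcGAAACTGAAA
Tgtp2: TTCCAGGAAtcGAAACCGAAA
Gm12185: TTCCAGGAAtaGAAAGTGAAA

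Across both GTPase families, 16 of 27 listed genes had a window. An ISRE match was present in 13 of the 16, a GAS match in 8 and both in 8. Several of these genes are close copies within their family, such as Irgm2 and Igtp, so letters shared by such copies are not separate observations. A match describes letters only, and no binding was measured.

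**Figure D1:**
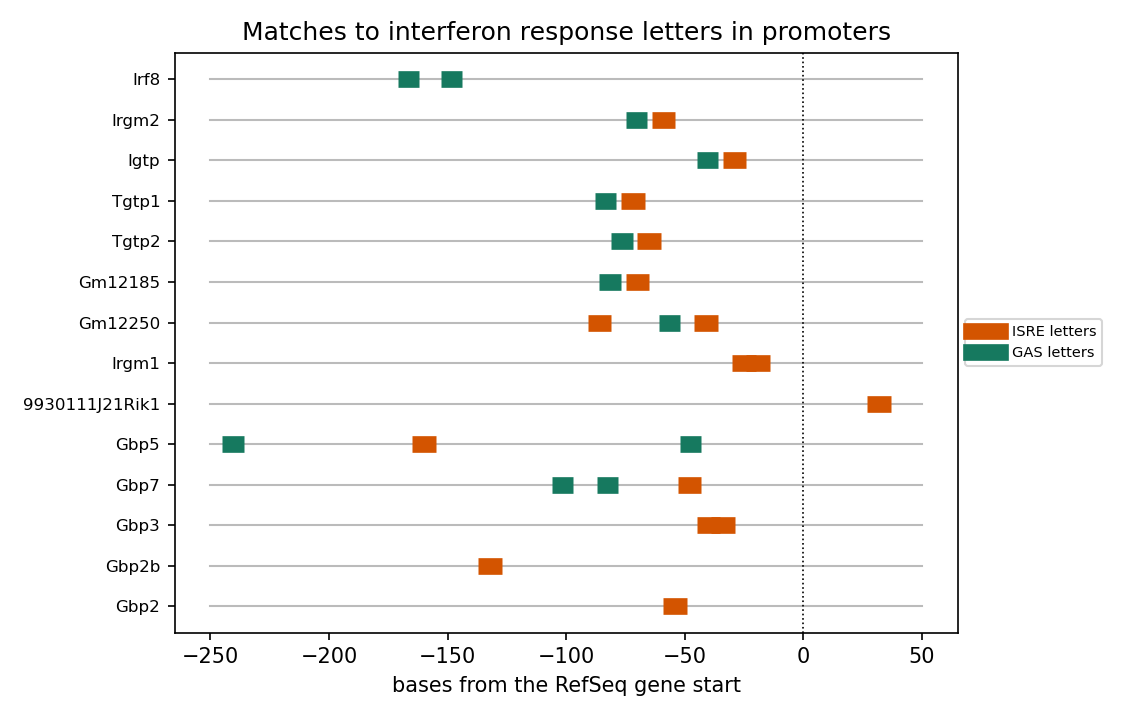
Positions of ISRE and GAS letter matches from 250 bases before to 50 bases after the gene start in RefSeq windows of GBP and IRG genes and of Irf8, with distance from the start in bases on the x axis and 1 gene per row. The GAS and ISRE matches lie 2 bases apart in Irgm2, Igtp, Tgtp1, Tgtp2 and Gm12185, and Irf8 has 2 GAS matches and no ISRE match.

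Tumours gave 5462555 to 6375069 counts over 16051 to 18771 detected rows. Values are CPM, counts per 1000000 TMM-scaled counts, and a row with no count could, by counting error alone, stand for up to 3 counts, or 0.445 to 0.66 CPM. Uhrf1 averaged 94.7 ± 24.5 CPM in sgUhrf1 tumours and 122 ± 21 CPM in sgNT tumours (SD, n = 3 each), and the groups overlapped. The tumours sgUhrf1 replicate 1 and sgNT replicate 2 were rich in muscle RNA, with Ckm, muscle creatine kinase, at 186 CPM in sgUhrf1 replicate 1 and 243 CPM in sgNT replicate 2 against at most 18 CPM in the other tumours. The tumour sgNT replicate 3 stood apart in the B cell marker Ms4a1, with 329 counts against at most 3 in any other tumour. Labels call the 3 tumours of a group biological replicates, so p-values measure the spread between these tumours.

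All 5 genes were higher in sgUhrf1 tumours by the quasi-likelihood test of edgeR at an adjusted p under 0.05, and none of them overlapped between groups. Among all 10503 rows tested, 20.2% were higher at that threshold, 26.6% had every sgUhrf1 tumour above every sgNT tumour, and 9.53% were higher by at least the fold of Irf8, the smallest of the 5. The GTPases differed by 2.92 to 3.77 on the log2 scale and Irf8 by 1.80, against a median of 0.019 over all rows. Gbp4 and Iigp1 passed the filter on low counts only through the sgUhrf1 tumours, so the count of 5 is not support by itself. By size of the log2 difference, Gbp6 was at place 165, Iigp1 at 173, Gbp4 at 175, Irgm2 at 258 and Irf8 at 487 among 4578 tested genes with a row of their own. In RNA of whole tumours, more cells of a type and more RNA per cell cannot be told apart.

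Irgm2, a regulatory IRG, had 303, 210 and 402 CPM in sgUhrf1 tumours, against 35.5, 35.3 and 50.3 CPM in sgNT tumours. Each sgUhrf1 tumour was above each sgNT tumour by a wide margin, and the sgNT tumours lay close together. The log2 fold change was 2.92 ± 0.28 (SE; 7.55-fold; edgeR adjusted p = 0.000176). It rests on 1711, 1322 and 1828 counts in sgUhrf1 tumours and 224, 238 and 284 counts in sgNT tumours, the deepest coverage among the 5 genes. Irgm2 spans 58199618 to 58222782 on chromosome 11 (GRCm38, plus strand), and the 762 bp of exon counted were all 3' UTR, in a row that also covers 5590 bp outside the gene. The other row of Irgm2, with 163 bp of 5' UTR, held 1, 4 and 7 counts in sgUhrf1 tumours and 5, 2 and 3 counts in sgNT tumours and was too low to test.

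Iigp1, an effector IRG on chromosome 18 (60376027 to 60392634, plus strand), had 12, 12.5 and 12.3 CPM in sgUhrf1 tumours, against 0.317, 0.148 and 2.48 CPM in sgNT tumours. The sgUhrf1 tumours were nearly equal, and sgNT replicate 3 was well above the other sgNT tumours, which held 2 counts and 1 count. The log2 fold change was 3.68 ± 0.74 (SE; 12.8-fold; edgeR adjusted p = 0.00467). Without sgNT replicate 3, in which it held 14 counts, the log2 fold change was 5.61 (edgeR adjusted p = 0.000649). The 1693 bp counted are exons of non-coding transcripts of the gene, with no coding or UTR base, beside 753 bp of intron and 199 bp outside the gene, so these counts need not follow its coding transcript.

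Gbp6, on chromosome 5 (105270702 to 105293698, minus strand), had 84.5, 57.5 and 127 CPM in sgUhrf1 tumours, against 6.33, 2.82 and 10.6 CPM in sgNT tumours. Its lowest sgUhrf1 tumour stood far above its highest sgNT tumour. The log2 fold change, 3.77 ± 0.47 (SE; 13.7-fold; edgeR adjusted p = 0.000599), was the largest estimate among the 5 genes, although the estimates of Gbp4 and Iigp1 lay within its SE. The row covers 443 bp of exon, of which 350 bp are 3' UTR and 93 bp coding, and also 3533 bp of intron and 3518 bp outside the gene.

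Gbp4, its neighbour on chromosome 5 (105115767 to 105139586, minus strand), had 10.1, 2.54 and 10.1 CPM in sgUhrf1 tumours, against 0.633, 0.148 and 1.06 CPM in sgNT tumours. The sgUhrf1 replicate 2 tumour was low for its group, yet still above all sgNT tumours. The log2 fold change was 3.61 ± 0.76 (SE; 12.2-fold; edgeR adjusted p = 0.00567), on 57, 16 and 46 counts in sgUhrf1 tumours and 4, 1 and 6 counts in sgNT tumours. Without the 2 muscle-rich tumours it was 2.85 and missed the threshold (edgeR adjusted p = 0.0578).

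A second Gbp4 row, over 130 bp of other exons, had 7.26, 3.65 and 3.30 CPM in sgUhrf1 tumours, against 0.95, 0.148 and 0.709 CPM in sgNT tumours. It was higher as well, by 2.95 ± 0.67 on the log2 scale (edgeR adjusted p = 0.0079), but without the 2 muscle-rich tumours it was at 2.03 and missed the threshold (edgeR adjusted p = 0.0954). A further row with 42 bp of Gbp4 exon fell just outside the 50 bp minimum, and it had 41.3, 30.8 and 99.6 CPM in sgUhrf1 tumours, against 6.02, 1.48 and 6.56 CPM in sgNT tumours. Gbp4 and Gbp6 lie in a cluster of near-identical copies, so reads of other GBP genes in these intervals were not separated.

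Irf8, on chromosome 8 (120736358 to 120756694, plus strand), had 146, 122 and 198 CPM in sgUhrf1 tumours, against 30.1, 37.8 and 66.3 CPM in sgNT tumours. The groups did not overlap, and sgNT replicate 3 was again the highest sgNT tumour. The log2 fold change was 1.80 ± 0.31 (SE; 3.48-fold; edgeR adjusted p = 0.00252). The 857 bp of exon counted hold 118 bp of coding sequence, 198 bp of 3' UTR and 541 bp of other exon, and the row also covers 517 bp of intron and 3403 bp outside the gene.

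Levels were also set per kilobase of exon counted. In sgUhrf1 tumours the mean was 400 CPM per kb for Irgm2, 202 for Gbp6, 181 for Irf8, 15 for Gbp4 and 7.27 for Iigp1. In sgNT tumours it was 53.0 CPM per kb for Irgm2, 52.2 for Irf8, 14.9 for Gbp6, 1.21 for Gbp4 and 0.58 for Iigp1. These rows cover 6.77% to 29.1% of a gene's exon bases, and for Gbp6, Irgm2 and Irf8 most of the row lies outside exons, so the order depends on reads there and describes the counted stretches only.

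**Figure D2:**
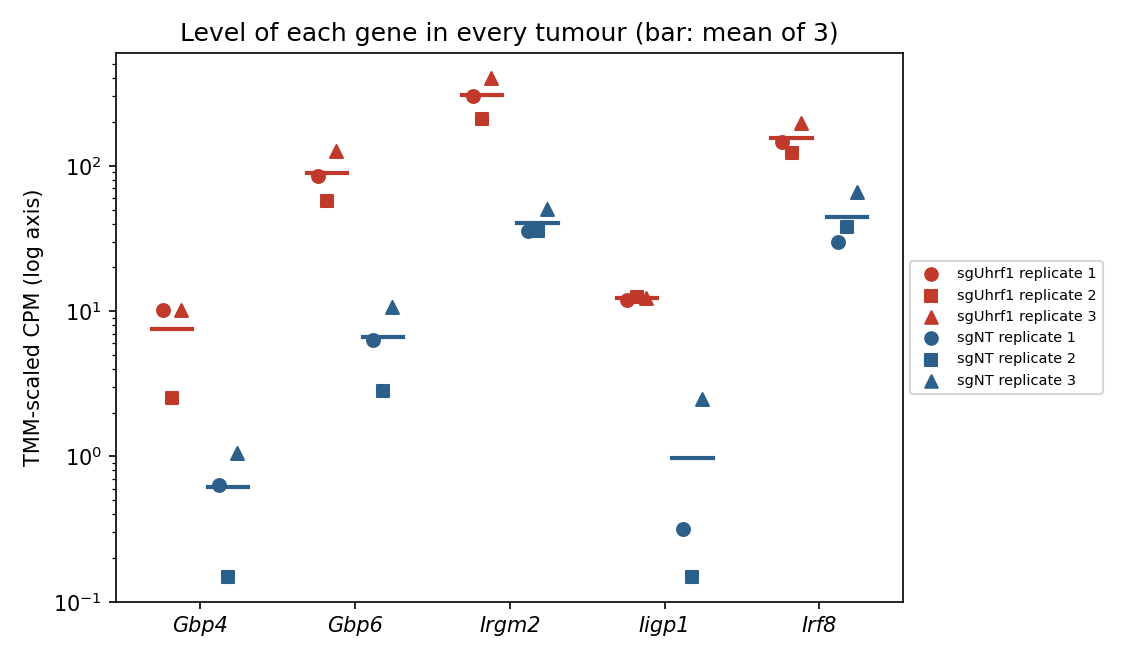
CPM on a log axis of Gbp4, Gbp6, Irgm2, Iigp1 and Irf8 in each tumour, sgUhrf1 left of sgNT for each gene, with a point per tumour and a bar for the mean of 3. Every sgUhrf1 point lies above every sgNT point, by a mean of 7.55-fold for Irgm2 and 3.48-fold for Irf8 in the edgeR fit.

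The sgNT tumour rich in B cell RNA, replicate 3, had the highest level of all 5 genes within its group. Of 7 B cell markers, 2 had a row of their own, and they summed to 7.26, 11.3 and 9.24 CPM in sgUhrf1 tumours, against 0.95, 0.445 and 71.1 CPM in sgNT tumours. Blk made up most of the sum in sgUhrf1 tumours, at 7.26, 11.1 and 8.58 CPM, and Ms4a1 most of it in sgNT replicate 3, at 58.3 CPM. Without sgNT replicate 3 the log2 fold change of Irf8 was 2.18. The part of B cells in these levels was not tested.

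The wider GBP family was measured in part. Of 11 listed genes, 3 had a row of their own and 2 of these, Gbp4 and Gbp6, were tested. The main row of Gbp2b held 6, 0 and 17 counts in sgUhrf1 tumours and 0 counts in each sgNT tumour, too few to test, and Gbp2, Gbp8, Gbp10 and Gbp11 had no row. Among rows shared by several genes, 22.9% of 3646 were higher in the same test, and both shared GBP rows were. The row over Gbp5, Gbp3 and Gbp7 had 151, 81.9 and 97.2 CPM in sgUhrf1 tumours, against 14.4, 7.71 and 25.2 CPM in sgNT tumours, a log2 fold change of 2.81 ± 0.42 (edgeR adjusted p = 0.00118). The row over Gbp9 and Gbp4 had 181, 111 and 267 CPM in sgUhrf1 tumours, against 27.1, 16.0 and 38.8 CPM in sgNT tumours, a log2 fold change of 2.77 ± 0.39 (edgeR adjusted p = 0.00097). In both rows the groups stood apart without overlap.

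Of 16 listed IRG genes, 8 had a row of their own and 7 were tested. Higher in sgUhrf1 tumours were 4 of the 7, Irgm2, Iigp1, Gm12185 and 9930111J21Rik2, and none was lower; the background for such rows was 20.6% higher and 21.5% lower. The median log2 difference of the 7 was 1.87, against -0.003 over all genes with a row of their own. Gm12185, whose promoter letters are printed above, had 27.1, 12.9 and 44.9 CPM in sgUhrf1 tumours, against 8.08, 5.93 and 9.04 CPM in sgNT tumours (log2 fold change 1.87 ± 0.44, edgeR adjusted p = 0.00945). The difference of 9930111J21Rik2 was 1.26 ± 0.30 (edgeR adjusted p = 0.00962). Without the 2 muscle-rich tumours the adjusted p of Gm12185 was 0.0752 and that of 9930111J21Rik2 0.109, and without sgNT replicate 2 alone that of 9930111J21Rik2 was 0.0503.

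The other 3 tested IRG genes did not pass. Gm5431 differed by 2.04 ± 0.73 on the log2 scale with an edgeR adjusted p of 0.05, not under the threshold, and it passed without sgUhrf1 replicate 2 (0.0159) or sgNT replicate 1 (0.0491). The row of 9930111J21Rik1 held few counts and differed by 0.74 ± 0.61 (edgeR adjusted p = 0.363). Irgq, a divergent member of the family, had 60.6, 102 and 73.9 CPM in sgUhrf1 tumours, against 61.3, 72.6 and 80.8 CPM in sgNT tumours, with overlapping groups (log2 fold change 0.14 ± 0.23, edgeR adjusted p = 0.654). Irgc1 held at most 5 counts in any tumour and was not tested. Irgm1, Gm12250, F830016B08Rik, Gm4951 and Gm4841 had no row.

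All 4 shared IRG rows were higher, and they carry most of the family's counts. The row over Irgm2 and Igtp, both regulatory IRGs, had 998, 743 and 1590 CPM in sgUhrf1 tumours, against 94.5, 74.1 and 191 CPM in sgNT tumours (log2 fold change 3.22 ± 0.41, edgeR adjusted p = 0.000671). The row over Tgtp1, an effector IRG, with 182 bp of 9930111J21Rik1, had 362, 361 and 603 CPM in sgUhrf1 tumours, against 42.3, 30.2 and 101 CPM in sgNT tumours (log2 fold change 2.93 ± 0.44, edgeR adjusted p = 0.00127). The row over Tgtp2 and the pseudogene Gm12187 had 395, 338 and 640 CPM in sgUhrf1 tumours, against 65.4, 45.1 and 102 CPM in sgNT tumours (log2 fold change 2.70 ± 0.35, edgeR adjusted p = 0.000671). A smaller row over Irgm2 and Igtp differed by 2.59 ± 0.48 (edgeR adjusted p = 0.00331). With the shared rows, 8 of 11 IRG rows were higher, with a median of 2.59, against 20.2% of all rows tested and 22.9% of shared rows. Irgm2 lies in its own row and in both rows shared with Igtp, so these rows are not separate genes. In each of the first 3 shared rows sgUhrf1 replicate 3 was the highest tumour and sgNT replicate 3 the highest of its group, the order also seen in Gbp6, Irgm2 and Irf8. Regulatory and effector IRGs were not tested against each other.

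Of 5 listed giant GTPases, a further interferon-inducible group, 2 had a row of their own. Gm8995 differed by 1.42 ± 0.47 (edgeR adjusted p = 0.0375), a call lost in 5 of 6 fits that left out 1 tumour, with adjusted p up to 0.13. Gm1966 differed by 1.22 ± 0.46 (edgeR adjusted p = 0.0612) and passed without sgNT replicate 3 (0.0395) or sgUhrf1 replicate 2 (0.0107).

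**Figure D3:**
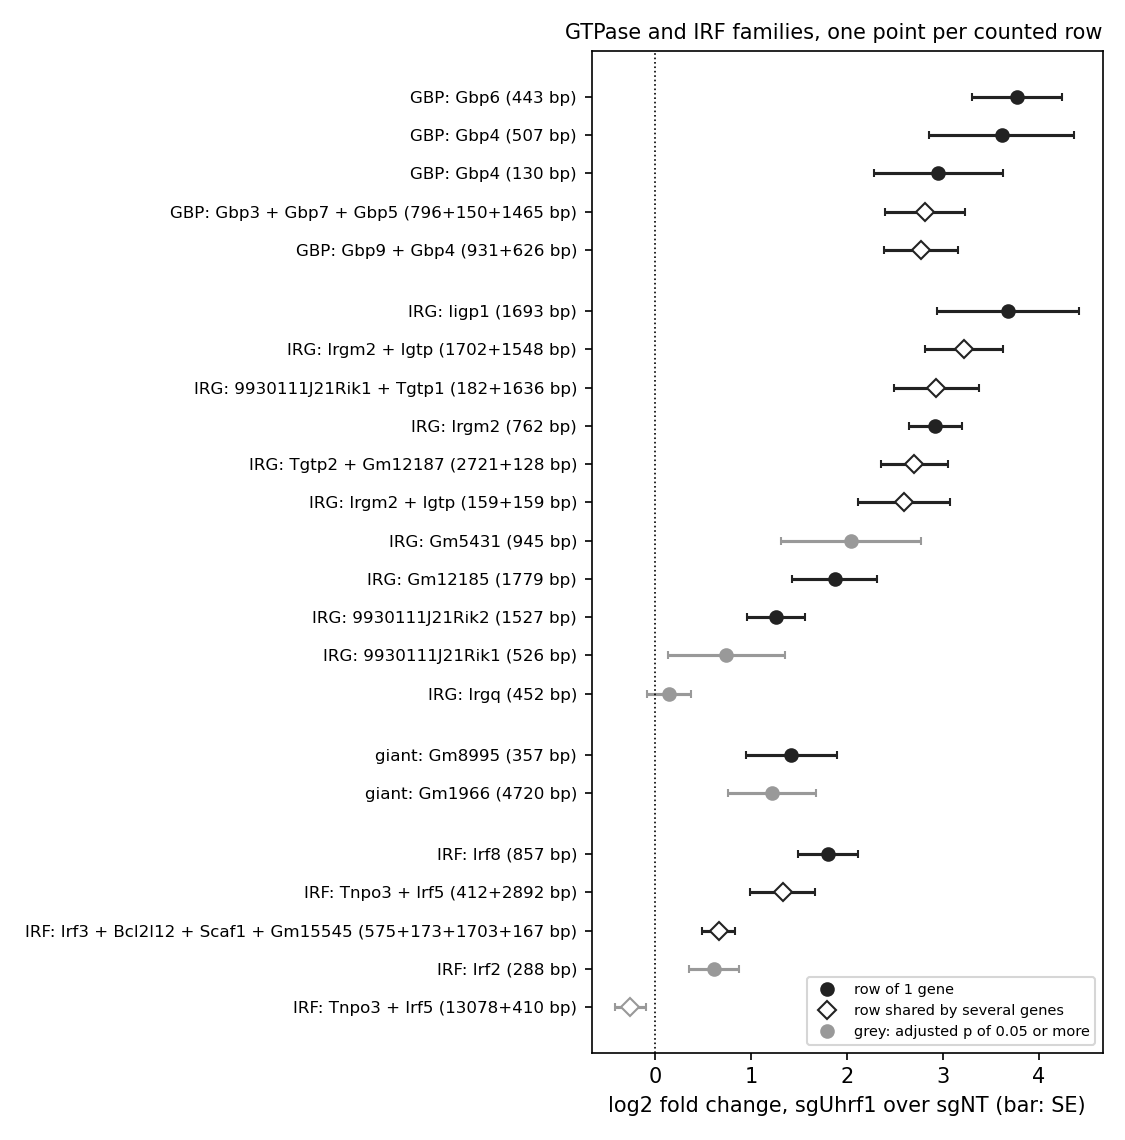
Log2 fold change, sgUhrf1 over sgNT, with its SE as a bar for each tested row of the GBP, IRG, giant GTPase and IRF lists; diamonds are rows shared by several genes and grey marks an edgeR adjusted p of 0.05 or more. The GBP rows lie between 2.77 and 3.77, the IRG rows between 0.14 for Irgq and 3.68 for Iigp1, and Irf8 at 1.80.

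Whether the GTPases and Irf8 differed by the same amount was asked within each tumour, as the mean log2 CPM of the GTPases minus the log2 CPM of Irf8. The mean of the 4 GTPases was -1.77, -2.24 and -1.96 relative to Irf8 in sgUhrf1 tumours, against -3.11, -4.07 and -3.28 in sgNT tumours. This mean of the 4 GTPases thus stood closer to Irf8 in every sgUhrf1 tumour than in any sgNT tumour, which does not hold for each gene singly. The groups differed by 1.49 ± 0.32 (SE), and the exact two-sided permutation test gave p = 0.1, the smallest that 3 against 3 tumours allow. Without the 2 muscle-rich tumours the difference was 1.10. The sgNT levels of Gbp4 and Iigp1 rest on few counts and so on the prior count, and both passed the filter only through sgUhrf1 tumours, so this mean and the family pairs are descriptions; Gbp6 and Irgm2, which passed in both groups, are also given singly.

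Each family was then set against Irf8 alone. The mean of Gbp4 and Gbp6 relative to Irf8 was -2.29, -3.25 and -2.44 in sgUhrf1 tumours, against -3.58, -4.94 and -4.09 in sgNT tumours (difference 1.54 ± 0.50, exact permutation p = 0.1). The mean of Irgm2 and Iigp1 relative to Irf8 was -1.25, -1.24 and -1.48 in sgUhrf1 tumours, against -2.65, -3.19 and -2.48 in sgNT tumours (difference 1.45 ± 0.23, exact permutation p = 0.1). The groups did not overlap for either family, and the IRG pair varied least within a group.

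Set against each other, the families did not separate the groups. The GBP pair minus the IRG pair was -1.04, -2.01 and -0.97 in sgUhrf1 tumours, against -0.93, -1.75 and -1.61 in sgNT tumours. The groups overlapped, with a difference of 0.09 ± 0.42 (exact permutation p = 1.0), and the sign turned when single tumours were left out (range -0.10 to 0.42). With SDs of 0.58 in sgUhrf1 tumours and 0.44 in sgNT tumours, a small difference between the families was not detectable with 3 tumours each.

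Taken singly, Gbp6 exceeded the Irf8 difference by 1.96 ± 0.44 and Irgm2 by 1.04 ± 0.20 (exact permutation p = 0.1 each, no overlap). The single values of Iigp1 and Gbp4 are descriptions only, since their sgNT levels rest on the prior count and they passed the filter only through sgUhrf1 tumours. Iigp1 exceeded the Irf8 difference by 1.86 ± 0.54 (exact permutation p = 0.1, no overlap). Gbp4 exceeded the Irf8 difference by 1.12 ± 0.61 with overlapping groups (exact permutation p = 0.2), since sgUhrf1 replicate 2 was at -5.41 and sgNT replicate 1 at -4.96. Irgm2 was the sole GTPase above Irf8 in counted level, by 1.06, 0.78 and 1.02 in sgUhrf1 tumours, against 0.24, -0.10 and -0.39 in sgNT tumours; counted stretches differ in length, which shifts both groups alike. Of these 8 measures, 7 share their Irf8 values, and they were not adjusted, since none could pass the threshold.

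**Figure D4:**
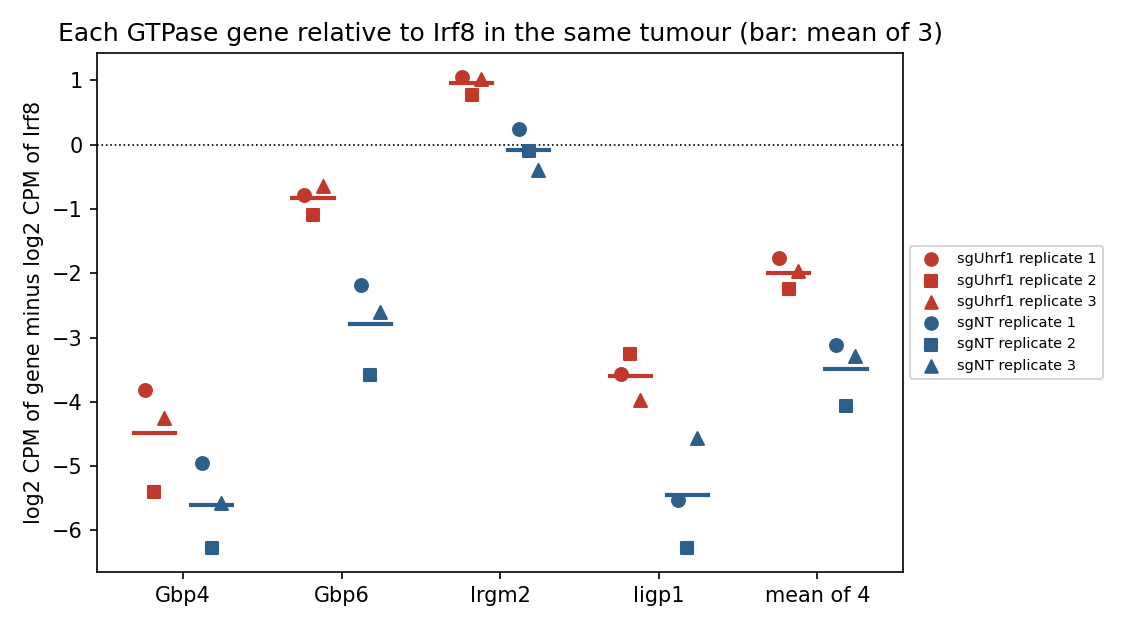
Log2 CPM relative to Irf8 in the same tumour for each GTPase and for the mean of the 4, sgUhrf1 left of sgNT, with a point per tumour and a bar for the mean of 3. The mean of the 4 GTPases lies at -1.99 in sgUhrf1 tumours and -3.49 in sgNT tumours, and Gbp4 alone among the single genes overlaps between groups.

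Irf8 was compared with its own family. Irf2, which binds the same elements, was the other of 9 listed IRF genes with a row of its own, at 27.3, 23.5 and 22.9 CPM in sgUhrf1 tumours, against 13.5, 14.4 and 20.6 CPM in sgNT tumours. These values did not overlap, but the difference of 0.61 ± 0.26 missed the threshold (edgeR adjusted p = 0.0934). A row with 2892 bp of Irf5 and 412 bp of Tnpo3 was higher by 1.33 ± 0.34 (edgeR adjusted p = 0.014; 0.054 without sgNT replicate 1), while the row mostly over Tnpo3 differed by -0.26 ± 0.16 (edgeR adjusted p = 0.219). A row over Irf3 and 3 other genes was higher by 0.66 ± 0.17 (edgeR adjusted p = 0.0137), a call lost without any 1 of the 3 sgNT tumours (up to 0.0738).

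Genes with which Irf8 works, or that mark the lineages it forms, were read the same way. Of 15 listed partners and lineage genes, 5 were tested in rows of their own, none was higher and 1 was lower, against 20.6% higher and 21.5% lower over all such genes. Spi1, which encodes PU.1, the partner with which Irf8 binds DNA, had 14.9, 7.94 and 30.1 CPM in sgUhrf1 tumours, against 15.8, 15.3 and 14.2 CPM in sgNT tumours, and the groups overlapped (log2 fold change 0.21 ± 0.43, edgeR adjusted p = 0.724). Zeb2, a transcription factor of monocyte and dendritic cell lineages that stromal cells also make, fell to 51.9, 19.7 and 62.4 CPM in sgUhrf1 tumours, against 103, 150 and 108 CPM in sgNT tumours (log2 fold change -1.43 ± 0.37, edgeR adjusted p = 0.0149; 0.0552 without sgNT replicate 2). Of 5 shared rows on this list, the row over Cebpa was higher, by 1.18 ± 0.20 (edgeR adjusted p = 0.00244).

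Upstream of the GTPases, 7 of 18 listed interferon receptor and JAK-STAT genes were tested in rows of their own, with 2 higher, 1 lower and a median of -0.21, where 20.6% of all such genes were higher and 21.5% lower. Counting the list's shared rows too, 9 of 17 passed as higher, with a median of 0.70. Tyk2, a kinase of type I interferon receptors, averaged 186 ± 12.9 CPM in sgUhrf1 tumours and 103 ± 9.90 CPM in sgNT tumours (log2 fold change 0.86 ± 0.16, edgeR adjusted p = 0.00385). Ifnar1, a type I receptor chain, was higher by 0.70 ± 0.17 (edgeR adjusted p = 0.0109) in its main row and at -0.89 ± 0.27 (edgeR adjusted p = 0.0277) in a row shared with Gm7856, a call lost without any 1 of the 3 sgNT tumours (up to 0.0858). Stat3 fell by 1.16 on the log2 scale (SE 0.26, edgeR adjusted p = 0.00787), and Ifngr1, a chain of the interferon-gamma receptor, differed by -0.21 ± 0.24 (edgeR adjusted p = 0.521). Jak2 differed by 0.49 ± 0.19 (edgeR adjusted p = 0.0618) in its main row and by -1.33 ± 0.24 (edgeR adjusted p = 0.00309) in another, so its rows disagreed. Without the 2 muscle-rich tumours Tyk2 (0.0543), Ifnar1 (0.0967) and Stat3 (0.102) missed the threshold.

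Rows of this pathway that are shared by several genes were also read. The row over Socs1, a feedback inhibitor of JAK kinases, and an overlapping transcript had 154, 85.9 and 212 CPM in sgUhrf1 tumours, against 17.9, 15.7 and 31.7 CPM in sgNT tumours (log2 fold change 2.79 ± 0.38, edgeR adjusted p = 0.000823). The groups did not overlap. A row with 477 bp of Stat2 and 119 bp of Timeless was higher by 1.16 ± 0.25 (edgeR adjusted p = 0.00666; 0.114 without the 2 muscle-rich tumours).

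GBPs are known to act with inflammasomes, and 3 of 4 tested genes on that list were higher, with a median log2 difference of 2.82, against 20.6% of all genes with a row of their own. Casp1, the inflammasome protease, had 245, 285 and 348 CPM in sgUhrf1 tumours, against 47.8, 20.9 and 29.2 CPM in sgNT tumours (log2 fold change 3.16 ± 0.31, edgeR adjusted p = 0.000213). Casp4, a sensor of bacterial lipopolysaccharide, differed by 2.85 ± 0.37 (edgeR adjusted p = 0.00068) and Gsdmd, the pore-forming protein both cleave, by 2.80 ± 0.25 (edgeR adjusted p = 0.000145). Aim2 differed by 0.71 ± 0.49 with overlapping groups (edgeR adjusted p = 0.279). In contrast to the GTPases, Casp1 and Gsdmd were highest in sgNT replicate 1 among sgNT tumours. The ATG8 conjugation genes, whose products place IRGs and GBPs on vacuoles, included 3 tested members and none past the threshold. Atg5 differed by -0.70 ± 0.31 (edgeR adjusted p = 0.104; 0.0348 without sgUhrf1 replicate 2), and Atg7 by -0.45 ± 0.30 (edgeR adjusted p = 0.263).

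Markers of host cells that can carry Irf8 were uneven. Of pan-leukocyte markers, 0 of 4 tested in rows of their own passed, and their sum ran over 14.3 to 27.5 CPM in sgUhrf1 tumours and 12 to 22 CPM in sgNT tumours. Of these, Rac2 did not overlap between groups (log2 fold change 1.30 ± 0.50, edgeR adjusted p = 0.0634). Ptprc differed by 0.30 ± 0.36 (edgeR adjusted p = 0.534) and Dock2 by -0.20 ± 0.47 (edgeR adjusted p = 0.765), both with overlapping groups. Of 4 shared rows on this list, 1 was higher, by 1.71 ± 0.31 (edgeR adjusted p = 0.00324). It holds 53 bp of Rac2, 279 bp of Cyth4 and 441 bp of Gm6723. Macrophage and monocyte markers had 0 of 6 past the threshold, with a sum of 288 to 977 CPM in sgUhrf1 tumours and 526 to 811 CPM in sgNT tumours. Lyz2, a lysozyme of these cells, was at 320, 134 and 465 CPM in sgUhrf1 tumours, against 437, 511 and 324 CPM in sgNT tumours. C1qc, on the same list, leaned the other way, at 386, 136 and 448 CPM in sgUhrf1 tumours, against 199, 237 and 153 CPM in sgNT tumours. Its groups overlapped (log2 fold change 0.72 ± 0.38, edgeR adjusted p = 0.164). Without sgUhrf1 replicate 2 it passed, at 1.07 (edgeR adjusted p = 0.00819). The dendritic cell list had 2 of 3 tested members higher, Itgax and Ccl22, and Wdfy4 lower (20.6% of all genes with a row of their own were higher), with a sum of 86.7 to 143 CPM in sgUhrf1 tumours and 20.0 to 26.1 CPM in sgNT tumours. Itgax, an integrin chain, differed by 2.15 (edgeR adjusted p = 0.000794) and Ccl22, a chemokine, by 3.68 (edgeR adjusted p = 0.000258). The lower call of Wdfy4 was lost in 4 of 6 fits that left out 1 tumour (adjusted p up to 0.14). Flt3, a defining marker of dendritic cells, held at most 2 counts and Zbtb46 at most 6 in any tumour.

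Over all genes with a row of their own, 20.6% were higher. T cell markers rose in 4 of 4 tested genes, with a sum of 83.3 to 215 CPM in sgUhrf1 tumours and 7.26 to 25.0 CPM in sgNT tumours. Of these, Zap70 held 6, 8 and 22 counts in sgNT tumours and Cd8b1 14, 8 and 16. Both passed the filter on low counts only through the sgUhrf1 tumours, so the count of 4 is not support by itself. All 5 tested shared rows on the T cell list were higher too, against 22.9% of all shared rows. They ran from 0.83 ± 0.22 for a row with Cd8a to 3.47 ± 0.65 for the row over Cd3g and Cd3d. Calls were lost for the Cd8a row without sgNT replicate 2 (edgeR adjusted p = 0.0711) and for a row with Cd4 without sgNT replicate 3 (0.115). NK and cytotoxic markers rose in 2 of 2, with a sum of 31.7 to 65.7 CPM in sgUhrf1 tumours and 3.85 to 13.6 CPM in sgNT tumours. Ctsw, 1 of the 2, held 7, 1 and 1 counts in sgNT tumours and likewise passed the filter only through sgUhrf1 tumours. A row with 315 bp of Ctsw, shared with Fibp and Ccdc85b, differed by -0.09 ± 0.32 with overlapping groups (edgeR adjusted p = 0.848). Ncr1 held 18, 1 and 4 counts in sgUhrf1 tumours and 6, 4 and 0 in sgNT tumours, too few to test. T cells and NK cells are the main source of interferon-gamma, whose own gene, Ifng, had no row. On the neutrophil list 1 marker was tested in a row of its own, Csf3r, at 78.4, 73.8 and 115 CPM in sgUhrf1 tumours, against 12.4, 5.04 and 6.91 CPM in sgNT tumours. Its second row, shared with Mrps15, was higher by 1.06 ± 0.30 (edgeR adjusted p = 0.0199; 0.0854 without sgNT replicate 2 and 0.0535 without sgNT replicate 3), and a row over Mmp9 and 2 other genes was lower, at -1.80 ± 0.40 (edgeR adjusted p = 0.00768). Epithelial markers, which the cancer cells can carry, rose in 2 of 2, with a sum of 1680 to 2810 CPM in sgUhrf1 tumours and 155 to 436 CPM in sgNT tumours. Among shared epithelial rows, the row over Krt8 and both shared rows of Cdh1 did not pass. The part of any of these cell types in the GTPase and Irf8 differences was not tested.

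Endothelial markers had 0 of 3 past the threshold, with a sum of 44.6 to 90.4 CPM in sgUhrf1 tumours and 35.3 to 81.9 CPM in sgNT tumours. Fibroblast markers had 1 of 5 lower and none higher, where 21.5% of all genes with a row of their own were lower and 20.6% higher.

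**Figure D5:**
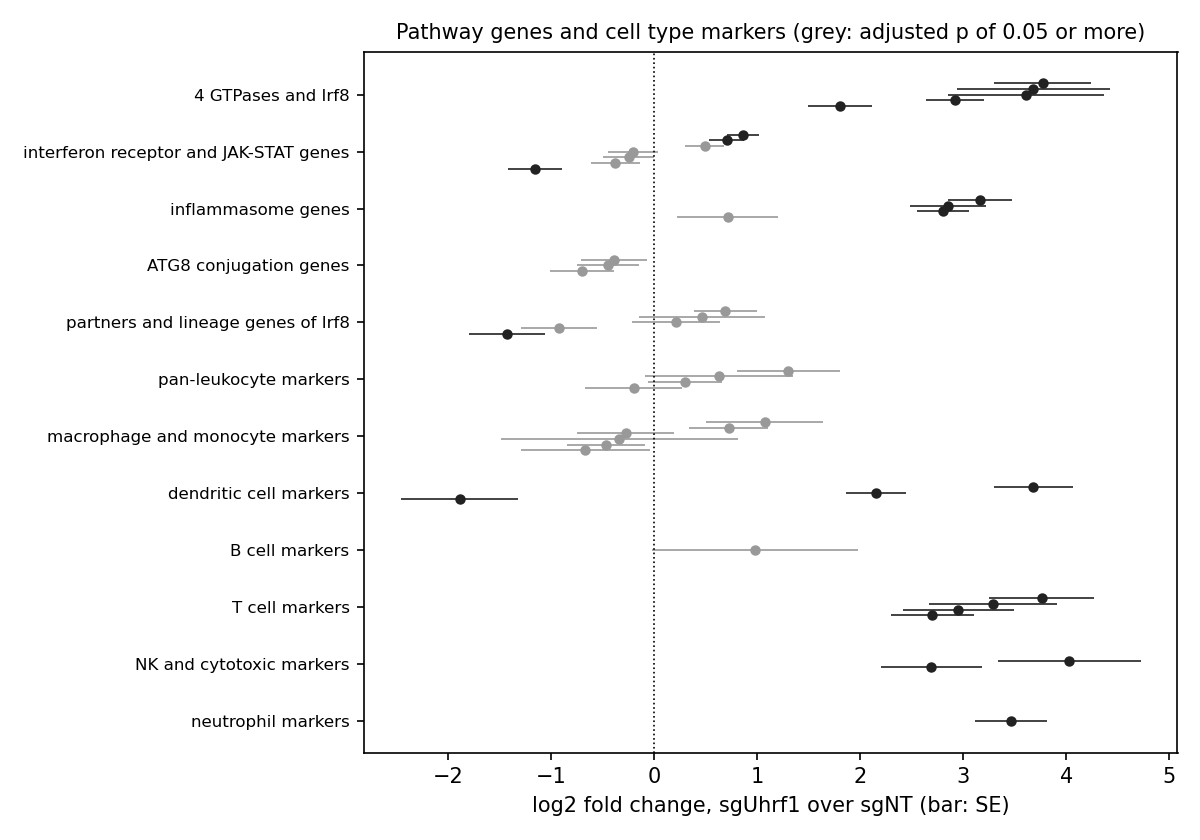
Log2 fold change, sgUhrf1 over sgNT, of each tested gene with a row of its own on the pathway and marker lists, 1 point per gene with its SE as a bar, grey where the edgeR adjusted p was 0.05 or more. Casp1, Casp4 and Gsdmd on the inflammasome list and the 4 T cell markers lie between 2.70 and 3.76, the GTPases between 2.92 and 3.77, while 0 of 6 macrophage and monocyte markers passed the threshold.

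Genes that followed the 5 most closely over the 6 tumours were sought among 4097 candidates by Pearson r of log2 CPM, as a description with no test, since the groups themselves differ. The mean of the 4 GTPases was followed most closely by Psmb9 (r = 0.996), H2-DMa (0.995), H2-Eb1 (0.994), Asns (0.994) and Nfkbid (0.993). Psmb9 encodes an immunoproteasome subunit, H2-DMa and H2-Eb1 belong to MHC class II antigen presentation, Asns encodes asparagine synthetase and Nfkbid an inhibitor-like regulator of NF-kappaB. Irf8 was followed most closely by Zap70 (0.997), Helz2 (0.995), Notch4 (0.993), H2-DMa (0.988) and Slain1 (0.988), of which Zap70 encodes a T cell receptor kinase. H2-DMa was on both lists. These values are not rare: 319 candidates reached r of 0.9 with the GTPases and 228 with Irf8, and all share the same 6 libraries.

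Psmb9 had 500, 374 and 929 CPM in sgUhrf1 tumours, against 36.4, 18.8 and 68.2 CPM in sgNT tumours. It had the order of Gbp6 in all 6 tumours, with sgUhrf1 replicate 3 highest and sgNT replicate 2 lowest. Zap70 had 15.4, 11.1 and 20.0 CPM in sgUhrf1 tumours, against 0.95, 1.19 and 3.90 CPM in sgNT tumours, the order of Irf8 in all 6.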

How the data were processed

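RNA of 6 tumours was measured. Deposited values are raw counts of read pairs. The submitters' processing notes name fastp, STAR, featureCounts and GRCm38; per the file headers, featureCounts was version 2.0.1, run without strand on an annotation in GRCm39 coordinates. Row names therefore seldom match the gene counted, and rows were renamed by overlap with GENCODE M21 exons: 13437 rows cover at least 50 bp of 1 gene (40.3% of counts) and 4952 are shared (57.9%). The row with most counts stands for a gene. Reads from introns, antisense genes or close copies are not separated.

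Counts were tested with edgeR 4.0.16 (R 4.3.3; TMM, filterByExpr with minimum count 10 and minimum total 15, quasi-likelihood F test, Benjamini-Hochberg over 10503 rows, threshold 0.05), and the fit was tested on simulated data. DESeq2 1.42.0 and limma 3.58.1 were alternatives. Log2 CPM has a prior count of 2. Values are mean ± SD, and log2 fold changes ± SE, sgUhrf1 over sgNT. The genes and lists were chosen with earlier results of these data known. Named are the 5 genes, every GBP, IRG, giant GTPase and IRF gene with a row, up to 4 members past the threshold of each other list or the 2 with most counts, and the 5 genes most like each pattern by Pearson r; a few others were chosen after their values were seen. Results that need some further genes are not reported here. Intervals in bp are GRCm38. Total counts ran from 5462555 to 6375069.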

Additional observations from a re-analysis of the deposited data

How the results depend on the processing

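Over 15 alternative fits, Gbp6, Irgm2, Iigp1 and Irf8 stayed higher in sgUhrf1 tumours with adjusted p of at most 0.00406, 0.00253, 0.0317 and 0.0262, in that order, and Gbp4 in 14. Leaving out the muscle-rich tumours (sgUhrf1 replicate 1 and sgNT replicate 2) gave 1094 rows higher and 771 lower instead of 2121 and 2066, Gbp4 at 2.85 (adjusted p 0.0578) and the GTPases at 1.10 relative to Irf8 (exact permutation p = 0.333, the smallest for 2 against 2); fewer tumours entered those fits. Without sgNT replicate 2 alone, 1259 rows were lower. With a prior count of 0.5, the IRG pair differed by 1.75 relative to Irf8. Iigp1, 1 of that pair, held 2, 1 and 14 counts in sgNT tumours, so its level there rests on the prior count.

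Leaving out 1 tumour at a time gave 1431 to 2020 rows higher and 1259 to 1908 lower. The log2 fold change ran over 3.10 to 4.22 for Gbp4, 3.37 to 4.29 for Gbp6, 2.66 to 3.12 for Irgm2, 3.12 to 5.61 for Iigp1 and 1.55 to 2.18 for Irf8. Relative to Irf8, the GTPases ran over 1.20 to 1.68, the GBP pair over 1.17 to 1.85 and the IRG pair over 1.24 to 1.60; GBP minus IRG ran over -0.10 to 0.42.

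Same-numbered tumours shared only a number (correlations of deviations -0.0795, -0.0209 and 0.05). With the replicate block, log2 fold changes were 3.64 for Gbp4, 3.86 for Gbp6, 2.89 for Irgm2, 4.03 for Iigp1 and 1.85 for Irf8, with the same calls. A minimum of 200 bp of exon chose the same rows. Low counts limit Gbp4 and Iigp1 in sgNT tumours.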
